A study of Mus musculus with 9 samples.

Results

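The untreated arm of a sodium alginate experiment was examined by itself: mouse inguinal stromal cells taken through white adipocyte differentiation without alginate. Its libraries were chosen by the treatment label (0 µM alginate), which gave 3 of the 9 RNA-seq libraries of the series. No dose was compared with another. The cells were stromal vascular cells of the inguinal (subcutaneous) fat depot of wild-type C57BL/6J mice, grown in 10% fetal bovine serum. Cells 4 days past confluence received insulin (1 µg/ml), dexamethasone (1 µM, a glucocorticoid), isobutylmethylxanthine (0.5 mM, which keeps cyclic AMP high) and, per the treatment protocol but not the design text, rosiglitazone (1 µM, a PPARγ agonist). From day 2 they were kept in insulin, again with rosiglitazone per that protocol. The titles give day 6 and the protocol gives RNA collection on day 7. The labels name the cells mature white adipocytes. They give neither sex nor age of the mice. Whether the 3 libraries represent different animals or culture wells is not stated, and the spread below may therefore be technical.

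Adipogenesis turns a fibroblast-like progenitor, marked by the PDGF receptor alpha, into a cell that stores triglyceride. The signals of the induction medium first raise C/EBPβ and C/EBPδ, which switch on PPARγ and C/EBPα. That pair then maintains each other and the genes for fatty acid uptake, triglyceride synthesis, the lipid droplet and secreted hormones such as adiponectin and leptin. A stromal vascular isolate also carries macrophages, endothelial cells and mural cells, some of which can persist on the plate. In bulk RNA, fewer cells of a type and less RNA per cell cannot be told apart.

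Levels are given in FPKM, read fragments per kilobase of gene and per unit of sequencing depth, as deposited, with ± for the SD over 3 libraries. Rebuilt read totals were 14314663, 14583502 and 14540805 in libraries 1, 2 and 3. Across 4746 protein-coding genes with a mean of at least 10 FPKM, the median coefficient of variation between libraries was 4.18%, against 2.86% from read counting alone. No pair of libraries agreed within counting noise, with a chi-square per gene of their reads between 3.09 and 4.55, and each was counted as 1 sample. With 1 group of 3, the smallest p of a 2-sided paired permutation test is 0.25. No test was made, and the order of 2 genes is stated only where their ranges over the libraries did not overlap. Library 3 stood apart from the other two in interferon-stimulated genes, described further on.

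The culture expressed 10534 of 20461 annotated protein-coding genes (51.5%) at 1 FPKM or more in each library. Of these, 4559 (22.3% of annotated genes) reached 10 FPKM and 452 (2.21%) reached 100 FPKM in each library. At 1000 FPKM there were 13. The 100 most abundant coding genes held 25.2% ± 0.225 of summed protein-coding FPKM, and 25 of them were ribosomal protein genes. Another 10 belonged to a list of mature adipocyte genes and 11 to a list of matrix genes. None belonged to the cell cycle or macrophage lists.

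Of the first 30 coding genes, 8 were named ribosomal protein genes, and others belonged to fatty acid handling and matrix. Fth1, the ferritin heavy chain, was highest by the table's gene lengths, with 5052 ± 276 FPKM. Fabp4, the fatty acid carrier of adipocytes, followed with 2601 ± 76.2 FPKM, and Sparc, a collagen-binding matrix glycoprotein, with 1893 ± 54.8 FPKM. Ranges of these 3 genes did not overlap. Below them came the predicted gene Gm10073 (1748 ± 94.7 FPKM), Scd1, the desaturase that makes oleate (1717 ± 171 FPKM), Col3a1 of fibrillar collagen (1462 ± 100.2 FPKM) and the actin-severing protein gene Gsn. Gm10073 and Scd1 overlapped in range with each other and with Sparc. The acute-phase inhibitor Serpina3n (1434 ± 25.9 FPKM) and the metallothioneins Mt1 and Mt2, which bind zinc and respond to glucocorticoids, were in the same range. Further genes of fat storage among the first 30 were Lpl, Cd36, Gpd1 and Cidec, and further matrix genes were Col4a1 and Col1a1.

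**Figure D1:**
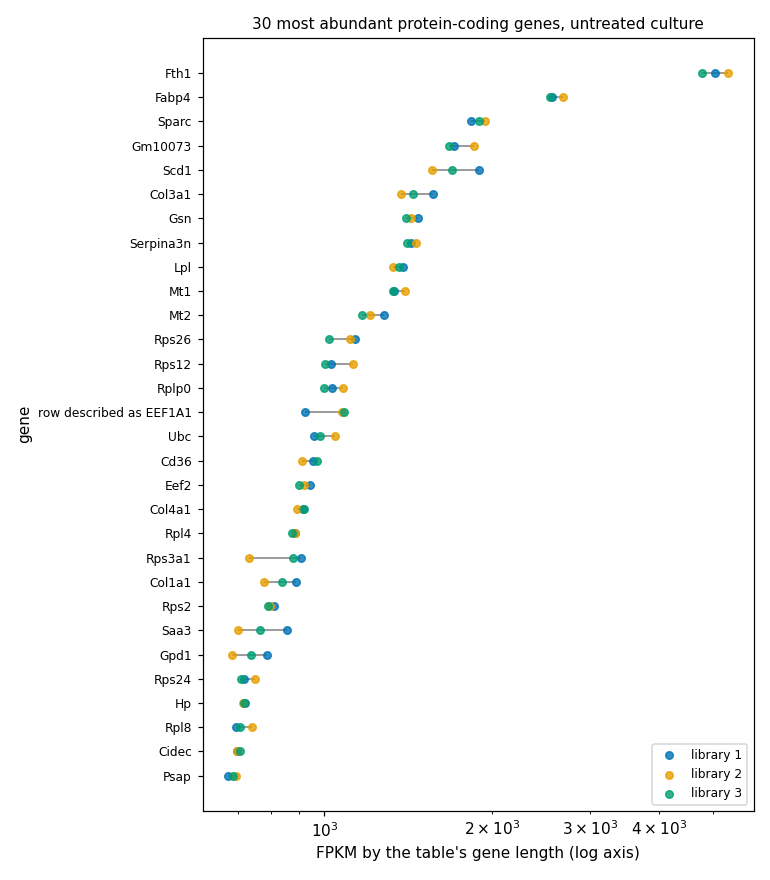
FPKM (log axis) of the 30 most abundant protein-coding genes in the 3 untreated libraries, 1 point per library, with a line over the range. Fth1 and Fabp4 lie apart from the rest, and Scd1, Col3a1 and Saa3 are among the genes with the wider ranges.

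The order at the top depended on gene length. For Fabp4 the table's length is 4489 bases, the whole gene from first to last base, introns included, whereas its longest protein-coding transcript in the GENCODE annotation has 896 bases. Per kilobase of that transcript, Fabp4 stood at 12875, 13464 and 12749 in libraries 1, 2 and 3, the highest of all 19069 matched coding genes, and Fth1 (2928 ± 160.1) and Sparc (2771 ± 80.3) came next with overlapping ranges. Fabp5, a second fatty acid carrier, moved from rank 115 to rank 15 among the matched genes (300.8 ± 8.57 FPKM by the table, 1091 ± 31.1 by transcript). The levels of Adipoq and Cebpa hardly moved, since their lengths in the table were 1.07 and 1.00 times the transcript, while their ranks went from 39 to 54 and from 145 to 205. Across 10164 detected genes that could be matched, the table's length was a median of 1.15 times the transcript, and over 2 times in 1167 of them (11.5%). Levels in different genes below are therefore the table's FPKM unless a transcript length is named.

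**Figure D2:**
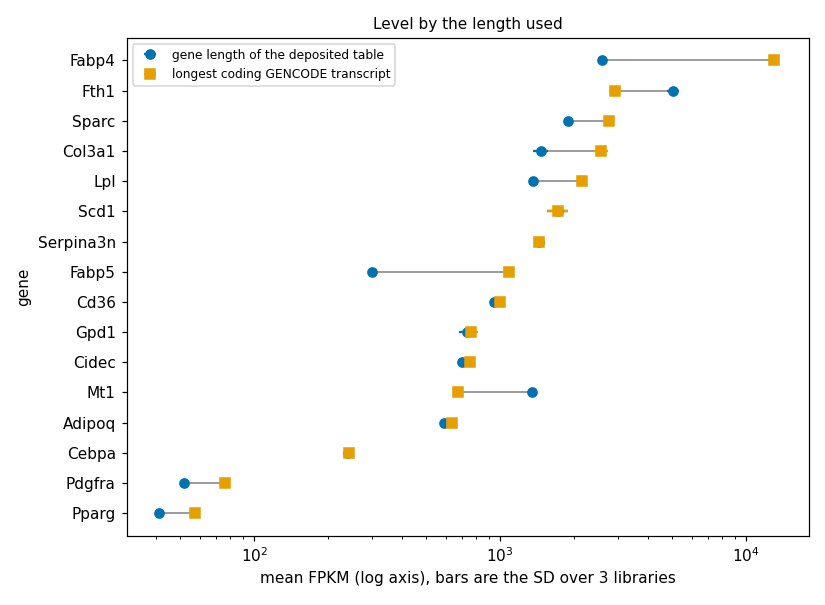
Mean FPKM (log axis) of 16 genes by the gene length of the deposited table (circles) and by the longest coding transcript (squares), with the SD over 3 libraries as bars. Fabp4 shifts from 2601 to 13030 and Fabp5 from 300.8 to 1091, whereas Cebpa stays at 242 and 243.

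The 6 genes that mark adipocytes and their progenitors were all present, in the same order in each library. Fabp4 stood at 2569.8, 2687 and 2545 FPKM in libraries 1, 2 and 3. Lpl, the lipase that frees fatty acids from circulating lipoproteins, stood at 1382, 1327 and 1363 FPKM. Adipoq, which encodes the hormone adiponectin, stood at 622, 589.7 and 569.5 FPKM. All 3 were within the 40 most abundant coding genes. Of the regulators, Cebpa was at 239, 235 and 251 FPKM and Pparg at 40.9, 42.1 and 40.7 FPKM. Pdgfra, the progenitor receptor, was at 54.1, 50.3 and 51.7 FPKM, above Pparg in every library and also per kilobase of transcript (76.4 ± 2.81 against 57.3 ± 1.04). Pdgfra ranked 988 among coding genes. Not every gene of mature fat was expressed, since Lep had 0 reads.

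In the table's own coordinates, whose gene identifiers are of the C57BL/6NJ strain assembly, Fabp4 lies on chromosome 3 from 7806753 to 7811241 on the minus strand. Lpl lies on chromosome 8 from 71612060 to 71641079, and Adipoq on chromosome 16 from 21203019 to 21215045. Cebpa is on chromosome 7 from 36180150 to 36182785, Pparg on chromosome 6 from 120977640 to 121121081 and Pdgfra on chromosome 5 from 78303537 to 78349133, all on the plus strand, as are Lpl and Adipoq.

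The starts of 3 of these genes are shown, because the adipocyte hormone, the adipocyte regulator and the progenitor receptor were expressed side by side. Each line is the 100 bases before a RefSeq transcription start, 5′ to 3′ on the plus strand of GRCm38.p6, with TATAAA and CCAAT (on either strand) in capitals. The windows are chr16:23146436-23146535, chr7:35119193-35119292 and chr5:75152151-75152250.
Adipoq: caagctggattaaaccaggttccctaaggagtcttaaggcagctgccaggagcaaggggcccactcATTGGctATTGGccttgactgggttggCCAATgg
Cebpa: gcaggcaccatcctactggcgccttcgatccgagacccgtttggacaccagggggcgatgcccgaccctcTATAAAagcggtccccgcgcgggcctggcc
Pdgfra: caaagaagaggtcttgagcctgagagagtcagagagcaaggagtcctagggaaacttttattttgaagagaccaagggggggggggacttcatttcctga
Adipoq held CCAAT letters 3 times, Cebpa held TATAAA 30 bases before its start, and the Pdgfra stretch held neither. These were letter matches and no binding was measured. In windows from 250 bases before to 50 after a start, both strands read, CCAAT occurred in 37.4% of all 32851 windows, TATAAA in 13.6% and TTGCNNAA, a core of the C/EBP site, in 10.8%. The 32 windows of the mature adipocyte list held them in 28.1%, 3.13% and 15.6%, that is 9, 1 and 5 windows. In the 10327 windows of detected protein-coding genes the shares were 37.5%, 7.00% and 8.30%.

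Adipogenic transcription factors were present in nearly full number: 23 of 24 measured reached 1 FPKM in each library and 12 reached 10 FPKM. Cebpa led, followed by Cebpb, the early factor of the cascade (106 ± 4.69 FPKM), without overlap. Klf9, a glucocorticoid-induced factor, and Srebf1, which drives lipid synthesis genes, came next and overlapped in range (72.4 ± 4.54 and 71.4 ± 2.06 FPKM), and per transcript length Srebf1 was the higher (93.6 ± 2.70 against 52.6 ± 3.30). A row that the table marks as a pseudogene and describes as Cebpd, the partner of Cebpb, was at 66.2 ± 2.48 FPKM. Klf5, another early factor, was the only measured member below 1 FPKM, at 0.64, 0.70 and 0.70 FPKM.

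Mature adipocyte genes were abundant as a group; the lists share some members. Of 34, 32 reached 1 FPKM, 28 reached 10 FPKM and 15 reached 100 FPKM in each library, with a median of 77.7 FPKM. The median of all detected coding genes was 8.61 FPKM. Cd36, the fatty acid translocase, was at 955, 909.8 and 970.5 FPKM. Gpd1, which makes glycerol 3-phosphate, was at 787, 682 and 736 FPKM, and Cidec, which fuses lipid droplets, at 695, 697 and 705 FPKM. Cidec varied least of these, and Gpd1 was lowest in library 2.

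A few genes of fully developed fat were low or unread. Lep, the leptin gene, had 0 reads in all 3 libraries, which allows at most 3 reads, or 0.0605 FPKM, as far as counting error goes. Pck1, an enzyme of glycerol synthesis in adipocytes, was at 0.84, 0.37 and 0.63 FPKM. Cfd, which encodes adipsin, a major secreted protein of mouse fat, was at 14.6, 10.6 and 14.3 FPKM. Adipoq was thus far above Cfd in every library, and Lep was not detectable at this depth. Acvr1c, Hcar1, Sncg and Nnat lay between 2.54 and 8.32 FPKM in single libraries.

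Fatty acid synthesis genes were complete. All 20 measured members reached 1 FPKM, 17 reached 10 FPKM and 7 reached 100 FPKM in each library. Scd1 stood at 1898, 1558 and 1695 FPKM and Fasn, the fatty acid synthase, at 348, 281 and 296 FPKM. Both were highest in library 1 and lowest in library 2, as were Acaca (71.5, 57.6 and 62.2 FPKM) and Acacb, the 2 acetyl-CoA carboxylases. Me1 and G6pdx, which supply NADPH for synthesis, were at 168 ± 8.60 and 121 ± 2.62 FPKM. Elovl6 and Mlxipl, which encodes the sugar-sensing factor ChREBP, were the lowest members (6.25 ± 0.914 and 6.15 ± 0.222 FPKM).

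The triglyceride and droplet list had 20 of 24 members at 1 FPKM or more. Besides Gpd1 and Cidec, Agpat2, an acyltransferase of triglyceride synthesis (399 ± 20.2 FPKM), Plin2 (303 ± 5.68 FPKM) and Plin1 (209 ± 0.247 FPKM) were highest. Plin1 coats the droplets of mature fat cells, and Plin2 those of many cells. Cideb, a relative of Cidec, Fitm1 and Mogat1 were below 1 FPKM in each library, and Cidea was at 1.01, 0.23 and 0.23 FPKM.

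Of 20 lipolysis genes, 18 reached 1 FPKM and 5 reached 100 FPKM. Pnpla2, the triglyceride lipase ATGL, was at 562, 496.5 and 496.2 FPKM, above its inhibitor G0s2 (259.6, 242 and 260.2 FPKM) and its activator Abhd5 (125, 119 and 122 FPKM). The hormone-sensitive lipase Lipe lay at 130, 122 and 127 FPKM, overlapping Abhd5. Adrb3, the fat-type beta-adrenergic receptor, was at 24.2, 21.9 and 20.7 FPKM. Ptger3, a prostaglandin receptor, and Adrb1 were below 1 FPKM in each library.

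All 20 insulin response genes reached 1 FPKM and none reached 100 FPKM in each library. Pde3b, the phosphodiesterase by which insulin restrains lipolysis, led with 70.6 ± 5.32 FPKM. The insulin receptor Insr was at 23.8 ± 0.469 FPKM. Slc2a4, the insulin-responsive glucose transporter GLUT4, was at 25.9, 21.3 and 20.8 FPKM, and Slc2a1, the basal transporter, at 28.1, 26.5 and 24.5 FPKM. Their ranges overlapped, and per transcript length Slc2a4 led the family with 41.5% of its sum, so neither can be placed first.

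Secreted products went beyond adiponectin. Of 22 adipokine genes, 19 reached 1 FPKM in each library. Serpina3n, Saa3, a serum amyloid made by fat and macrophages (858, 698 and 765 FPKM), and Hp, haptoglobin (721, 714 and 718 FPKM), were above Adipoq in every library by the table's lengths. Per transcript length Serpina3n and Hp were still above Adipoq, and Saa3 was below it (187 ± 19.4 against 635 ± 28.6), since its length in the table is 0.241 times its transcript. Retn, resistin, was at 75.4 ± 2.32 FPKM and Rbp4, the retinol carrier, at 45.7 ± 3.46 FPKM. Sfrp5, a Wnt inhibitor of fat, was below 1 FPKM in each library.

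The chemokines Ccl2 and Ccl7, which attract monocytes, were at 182 ± 7.94 and 180.5 ± 6.78 FPKM, and complement C3 at 154 ± 8.86 FPKM. Of 26 inflammatory genes measured, 21 reached 1 FPKM in each library. Il1b was listed at 0 in all 3 libraries and Ccl5 stayed below 1 FPKM. Il6 was at 5.01, 4.91 and 4.98 FPKM and Tnf at 0.67, 1.10 and 0.82 FPKM.

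Glucocorticoid-responsive genes were all present, 15 of 15 at 1 FPKM and 14 at 10 FPKM in each library, although the protocol lists dexamethasone until day 2. Fkbp5, a chaperone of the glucocorticoid receptor, was at 41.3, 42.7 and 43.1 FPKM and Tsc22d3, which encodes GILZ, at 27.6, 27.3 and 28.6 FPKM. The receptor gene Nr3c1 was at 17.5 ± 0.363 FPKM. Their dependence on the added hormone was not tested.

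**Figure D3:**
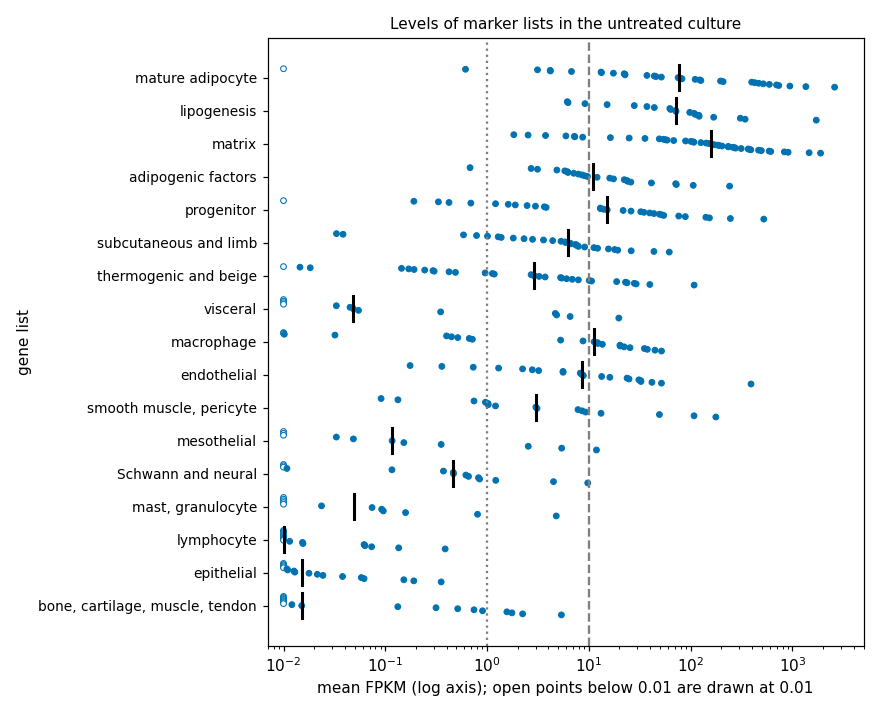
Mean FPKM over 3 untreated libraries (log axis) of each measured member of 17 gene lists, 1 point per gene, with the list median as a bar; dotted and dashed lines mark 1 and 10 FPKM. Matrix and mature adipocyte lists lie highest, macrophage and endothelial lists sit across 10 FPKM, and lymphocyte and epithelial lists lie below 1 FPKM.

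Thermogenic genes were mixed. Of 33 genes of brown and beige fat, 20 reached 1 FPKM and 8 reached 10 FPKM in each library, with a median of 2.91 FPKM. Among all annotated coding genes, 51.5% and 22.3% reached these levels. Ucp1, the uncoupling protein that releases heat, was at 0.17, 0.20 and 0.20 FPKM, which is 4, 5 and 5 reads. Elovl3, an elongase abundant in brown fat, was at 119, 97.5 and 109 FPKM, and Cox7a1, a respiratory subunit of muscle and brown fat, at 37.3, 40.9 and 41.0 FPKM. Elovl3 and Cox7a1 thus stood far above Ucp1 in every library. Below 1 FPKM in each library were also Zic1, a mark of classical brown fat (0.01 FPKM on average), Tmem26, a beige surface marker (0.42 FPKM), Cpt1b, Ucp3, Otop1, Eva1a, Epsti1, Esrrg and Ckmt2. Reads of Cpt1b share their place with Chkb, an overlapping row at 5.28 ± 0.359 FPKM, so the level of Cpt1b is uncertain. Prdm16, a co-regulator of the beige programme, was at 1.41, 1.18 and 0.94 FPKM and Dio2, which activates thyroid hormone, at 1.13, 1.13 and 1.13 FPKM.

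Positional regulators of subcutaneous fat and limb were expressed, and several visceral ones were not detected above 1 FPKM. Of 30 subcutaneous and limb genes 25 reached 1 FPKM in each library (median 6.23 FPKM), and of 13 visceral genes 4 did (median 0.0486 FPKM). Among all annotated coding genes 51.5% reached 1 FPKM, and the median of those detected was 8.61 FPKM, above that of the subcutaneous list. The visceral genes Wt1, Bnc1, Lrrn4 and Upk3b are also on the mesothelial list, so for them depot and cell type cannot be told apart. Sfrp2, a secreted Wnt modulator, was at 63.9, 63.5 and 57.9 FPKM and Prrx1, a limb mesenchyme homeobox gene, at 44.3, 41.8 and 44.8 FPKM. Tbx15 was at 26.1, 25.3 and 26.9 FPKM. The order of the first pair turned with the length used: per transcript length Prrx1 stood at 73.8 ± 2.68 and Sfrp2 at 66.4 ± 3.64, both above Tbx15 at 27.4 ± 0.826.

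Hox genes of the C cluster were expressed too. Hoxc10, typical of the hindlimb and inguinal region, was at 18.1, 19.3 and 16.5 FPKM, Hoxc8 at 15.6, 15.9 and 15.2 FPKM and Hoxc6 at 12.5, 12.8 and 11.3 FPKM. By the table's lengths these ranges did not overlap. Per transcript length Hoxc8 was above both (23.6 ± 0.497), and Hoxc6 (18.6 ± 1.24) and Hoxc10 (18.0 ± 1.40) overlapped. En1, a dermal and ventral limb gene, was at 7.42 ± 0.600 FPKM and Shox2 at 7.76 ± 0.792 FPKM. Tbx4, Tbx5 and Meox1 were below 1 FPKM in each library, and Pitx1, a hindlimb gene, was at 1.04, 1.06 and 0.94 FPKM. Hoxc5 overlaps several Hoxc rows in the table, so its 1.29 FPKM is uncertain.

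Of the visceral genes, Nr2f2 (19.7 ± 0.466 FPKM), Gata6 (6.55 ± 0.424 FPKM), Nr2f1 and Hoxb8 were present. Wt1, the defining factor of visceral fat progenitors and mesothelium, had 6, 1 and 2 reads, or 0.03 FPKM. Tcf21, another visceral progenitor factor, had 0, 3 and 0 reads. Bnc1 was near 0 and Upk3b, Tbx20 and Gata5 were listed at 0.

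Progenitor genes were expressed beside those of adipocytes. Of 31 measured, 25 reached 1 FPKM and 19 reached 10 FPKM in each library, with a median of 15.2 FPKM. Ly6a, the Sca-1 antigen of stromal progenitors, was at 489, 551 and 531 FPKM and Thy1, the CD90 antigen, at 143, 166 and 151 FPKM. F3, the tissue factor that marks a committed or regulatory stromal subset, was at 142, 143 and 139 FPKM. Icam1, a marker of committed preadipocytes, was at 25.1, 27.0 and 25.8 FPKM. Some genes of the earliest, interstitial progenitors were low. Dpp4 was at 0.22, 0.42 and 0.36 FPKM, Pi16 at 1.36, 1.71 and 1.77 FPKM and Cd55 at 3.92, 3.82 and 3.69 FPKM. Not all genes tied to these cells were low, since Anxa3 (21.7 FPKM on average) and Mfap5 (34.8 FPKM) lay above the list median. Dlk1, the preadipocyte factor that falls during differentiation, was at 0.48, 0.40 and 0.39 FPKM, Wnt2 was at 0.19 FPKM on average and Bmp7 was listed at 0. Cd34 was at 3.71, 3.86 and 3.40 FPKM, far below Ly6a.

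Matrix genes had the highest median of the lists described. All 45 reached 1 FPKM, 38 reached 10 FPKM and 28 reached 100 FPKM in each library, with a median of 158 FPKM. Their summed level was 12511, 12091 and 12260.2 FPKM, and that of the 34 mature adipocyte genes was 10294, 9911 and 9964 FPKM. Per transcript length the order of the sums was the reverse, with 17095 ± 305 for the matrix genes and 23037 ± 294 for the 34 mature adipocyte genes. Of the latter sum Fabp4 alone was 13030. A transcript was matched for 33 of the 34, and Tusc5 entered at the table's length. Both collagens of the basement membrane, Col4a1 (909 ± 14.7 FPKM) and Col4a2 (613 ± 19.2 FPKM), and the fibrillar Col1a1 (835 ± 55.0 FPKM) and Col1a2 (379 ± 25.5 FPKM) were among the highest. Lum, Col14a1, Col8a1, Eln, Timp3, Fmod and Lama2 were below 10 FPKM. Lum, a corneal and dermal proteoglycan, was at 3.61, 2.25 and 1.73 FPKM, whereas its relative Dcn, decorin, was at 247, 221 and 235 FPKM.

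Genes of other mesenchymal fates were low. Of 19 bone, cartilage, tendon and muscle regulators and products, 4 reached 1 FPKM in each library. These were Sox9 (5.35, 5.38 and 5.40 FPKM), Comp, Runx2 and Alpl. Sp7, Ibsp and Dmp1 of bone and Myf5, Pax7 and Myog of muscle were listed at 0.

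Macrophage genes were detectable in part. Of 23 measured, 14 reached 1 FPKM and 12 reached 10 FPKM in each library, and 8 were below 1 FPKM in each. The shares of all annotated coding genes at 1 and 10 FPKM were 51.5% and 22.3%. C1qb, of the complement recognition protein, was at 46.7, 58.1 and 50.5 FPKM, Mrc1, the mannose receptor, at 41.7, 45.9 and 46.3 FPKM and Adgre1, the F4/80 antigen, at 13.3, 11.4 and 12.3 FPKM. Summed over the list, the level was 308, 339 and 324 FPKM. Cd68, the lysosomal antigen, was at 37.6 ± 1.82 FPKM, and Csf1r, the receptor for the growth factor that macrophages need, at 5.28 ± 0.194 FPKM. Csf1, which encodes that growth factor, was at 131, 141 and 135 FPKM. Rows without a symbol that the table describes as Lyz2, macrophage lysozyme, were at 547 ± 31.5 and 458 ± 11.1 FPKM and are outside the counts.

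Among the low members of the macrophage list was Ptprc, the pan-leukocyte antigen CD45, at 0.37, 0.37 and 0.46 FPKM (99, 101 and 125 reads). Its length in the table, 18294 bases, is 3.61 times that of its longest coding transcript, and per transcript length it was at 1.44. Ccr2, the receptor of inflammatory monocytes, was listed at 0 and Cx3cr1 was at 0.03 FPKM. Aif1, Fcgr1 and S100a8 were below 1 FPKM in each library, and Cd163, a scavenger receptor of resident macrophages, was at 1.06, 0.42 and 0.53 FPKM. The Itgam row was at 0, but an overlapping row described as the same integrin was at 2.11, 2.17 and 2.13 FPKM, so its reads may have been counted there. The Itgax row, at 0.01 FPKM, overlaps Itgad, at 6.80 ± 1.29 FPKM. All 18 lymphocyte genes were below 1 FPKM in each library and 10 were listed at 0, among them Cd3e and Ms4a1. Of 12 mast cell and granulocyte genes, Kit alone reached 1 FPKM in each library (4.26, 4.83 and 5.26 FPKM).

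Endothelial genes were detectable as well. Of 23 measured, 20 reached 1 FPKM and 10 reached 10 FPKM in each library. Cav1, the caveolin gene also abundant in adipocytes, was the highest at 377, 394 and 405 FPKM. Cdh5, the endothelial cadherin, was at 49.6, 54.1 and 51.5 FPKM and Pecam1 at 29.3, 32.2 and 31.5 FPKM. Lymphatic genes were included: Lyve1, which macrophages can also express, was at 37.3, 45.8 and 41.9 FPKM, Flt4 at 7.62, 10.1 and 8.80 FPKM and Prox1, the lymphatic master regulator, at 3.35, 3.03 and 3.26 FPKM. Vwf, Sox17 and Aplnr, found in large vessel, arterial and venous or capillary endothelium, were below 1 FPKM in each library. The summed level of the list was 680, 735 and 733 FPKM, and 302, 340.4 and 328 FPKM without Cav1.

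Mural genes were led by contractile genes that activated fibroblasts also use. Acta2, smooth muscle actin, was at 165, 195 and 170 FPKM and Tagln at 105, 117 and 102 FPKM. Of 16 mural genes, 10 reached 1 FPKM in each library, beside 51.5% of all annotated coding genes. Myocd, the master factor of smooth muscle, and Higd1b, a pericyte gene, were below 1 FPKM, and Rgs5, a pericyte gene, was at 1.09, 1.17 and 0.80 FPKM. None of 18 epithelial genes reached 1 FPKM in each library, and the mesothelial list and the Schwann and neural list had 3 of 11 and 3 of 15 there. Ngfr, a neurotrophin receptor of Schwann and stromal cells, was at 9.76 ± 0.655 FPKM, and Sox10, the Schwann factor, below 1 FPKM in each library. How far macrophage, endothelial or mural cells contributed to the levels of genes they share with adipocytes was not tested.

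Cell cycle genes were read at low to moderate levels. All 24 reached 1 FPKM and 11 reached 10 FPKM in each library. Mki67, the proliferation antigen, was at 12.6, 12.4 and 12.2 FPKM and Top2a at 13.6, 13.7 and 14.1 FPKM. The cell cycle inhibitor Cdkn1a was at 105, 124 and 121 FPKM, the highest of the list.

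Paralogue use was then examined in 72 families with at least 2 measured members. In 62 of them a single member held more than 50% of the family's summed FPKM in every library, and in 15 more than 90%. In a family of 2 measured members the higher one exceeds 50% unless the order changes between libraries. Pdgfra and Pdgfrb, at 51.3% and 48.7%, count in this way. The number 62 thus follows in part from family size and is no measure of dominance. The leading member's range did not overlap that of the next in 65 families. Per transcript length, 63 families kept their leader and 9 did not, so a paralogue is named as leading below only where both lengths gave it. The counts of 72, 62, 65 and 63 include pyruvate carboxylase with the PEP carboxykinases, which are different enzymes and not paralogues.

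Several lipid handling families leaned on a form typical of fat, though not the perilipins, where Plin2, found in many cells, led. Fabp4 held 89.6% ± 0.290 of fatty acid binding protein FPKM and Fabp5 10.4%, and the other 6 members were below 1 FPKM. Per transcript length the share of Fabp4 was 92.3%. Acsl1 held 90.0% ± 0.475 of long-chain acyl-CoA synthetases, Agpat2 85.6% ± 0.612 of its family and Lpin1 84.5% ± 0.925 of the lipins. Cidec held 99.9% of CIDE proteins and Gpd1 98.0% ± 0.121 of glycerol 3-phosphate dehydrogenases. Plin2 and Plin1 shared the perilipins, with 52.0% ± 0.781 and 35.8%. Dgat1 held 61.5% ± 0.565 and Dgat2 38.5% of the final acyltransferases of triglyceride synthesis.

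Desaturases and elongases each had several expressed members. Scd1 held 83.2% ± 1.06 and Scd2 16.7% of stearoyl-CoA desaturases. Elovl3 led the elongases with 57.1% ± 3.63, with Elovl1 next at 18.3%, and per transcript length its share was 46.5%. Fads3 and Fads1 overlapped (46.1 ± 1.48 and 44.0 ± 1.59 FPKM), and the transcript length placed Fads1 first.

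Receptors and signalling proteins were scored in the same way. Adrb3 held 87.5% ± 0.554 of beta-adrenergic receptor FPKM, and Adrb1 stayed below 1 FPKM. Pde3b held 95.6% ± 0.796 over Pde3a, Adipor2 82.0% ± 0.773 over Adipor1 and Prkar2b, the protein kinase A subunit of fat and brain, 60.3% ± 0.963 of the regulatory subunits. Pparg held 71.7% ± 2.06 of PPAR receptors, ahead of Ppard with 16.4%, Rxra 64.2% ± 0.288 of RXR receptors and Srebf1 71.9% ± 0.355 over Srebf2. Akt1 held 61.8% ± 2.11 of the AKT kinases, ahead of Akt2, the form tied to insulin action, with 32.0%. Mlxip, which encodes MondoA, exceeded Mlxipl with 69.2% ± 1.45. By the table's lengths Pdgfra and Pdgfrb were nearly even, at 51.3% and 48.7%, whereas per transcript length Pdgfra held 60.5%.

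Energy metabolism families used the widely expressed forms. Cox4i1 held 99.5%, Cox6a1 99.0% and Cox8a 98.8% of their subunit families. Of the summed COX7A FPKM, Cox7a2 held 48.3% and the Cox7a2-like gene Cox7a2l 40.3%. Cox7a1, at 39.7 ± 2.09 FPKM, held the rest, and the share of Cox7a2l is not read as a choice of subunit. Ucp2 held 92.5% ± 2.27 of uncoupling protein FPKM, at 6.05 ± 0.576 FPKM. Aldoa held 99.9% of aldolases and Pkm 100% of pyruvate kinases. Pcx held 88.6% ± 0.636 and Pck2 11.2% of the summed FPKM of pyruvate carboxylase and PEP carboxykinases. These are different enzymes, so that share shows no choice between forms. Hk2 exceeded Hk1 by the table's length and fell behind it by transcript length. Enolases were scored without Eno1, which could not be matched to a single row, and are not described.

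**Figure D4:**
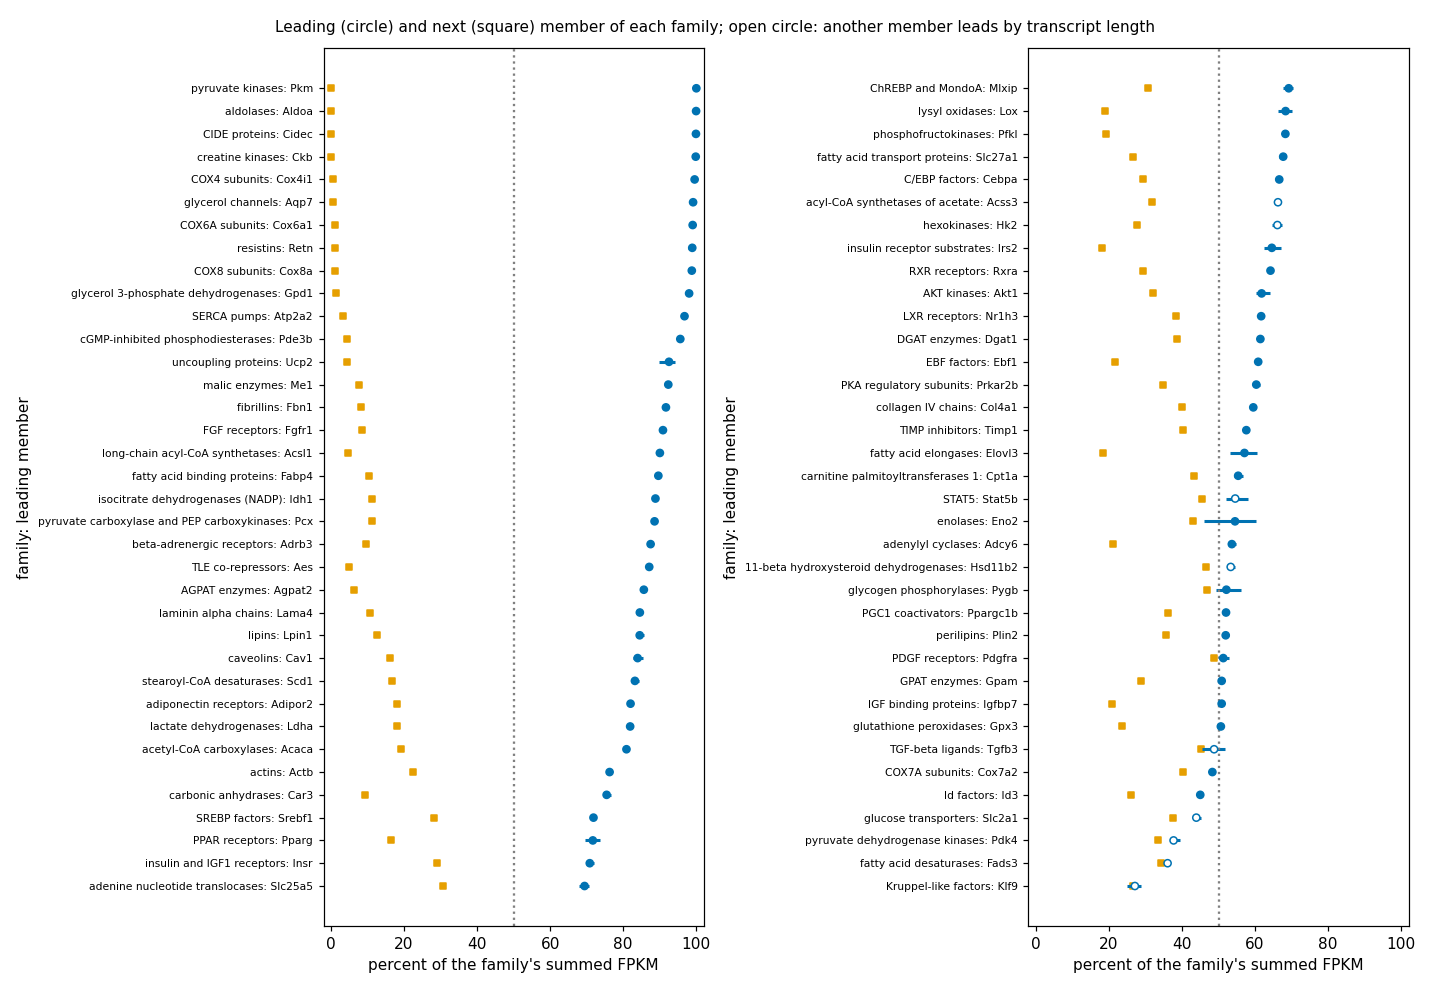
Share of each family's summed FPKM (percent) held by its leading member (circle, with the range over 3 untreated libraries) and by the next (square), for 72 families in 2 panels; the dotted line marks 50%. Open circles mark the 9 families led by another member when transcript lengths are used.

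Close copies affected several values. They were looked for in 711 genes, those of the 27 lists and the families with Lgals1, Rps28, Fth1 and Tpt1. Other named genes were not examined, and genes whose protein entry another named coding row shares were passed over. Of the 711 genes, 51 had other rows described by the same protein and holding reads. Among the 47 of these with a mean of at least 1 FPKM, the other rows held over 10% of the combined reads in 4 (Tpt1, Gapdh, C4b and Ppia) and over 50% in 3 (all but Ppia). Gapdh, the glycolytic enzyme gene often used as a reference, was at 32.7, 41.5 and 32.2 FPKM, while 53 other rows, mostly processed pseudogenes, held 78.8% ± 0.264 of reads under its description. For Tpt1, a translation-linked gene, 2 other rows held 97.4% ± 0.599, and for Fabp5 2 rows held 7.65% ± 0.212. Gapdh and Tpt1 levels are therefore uncertain. Actb was at 577, 637 and 588 FPKM, and the reference gene Tbp at 1.75, 1.55 and 1.81 FPKM. Processed pseudogenes held 3.09%, 3.57% and 2.90% of all FPKM in libraries 1, 2 and 3.

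The libraries differed most in a few genes. Of 4746 coding genes at a mean of 10 FPKM or more, 28 had a coefficient of variation above 20% and 5 above 50%. Among those with a symbol, Lsm7, Ndufa12, Lsm5 and Acaa1b led, followed by Gstp1. Lsm7, an RNA-binding ring subunit, was at 8.58, 22.2 and 8.25 FPKM, and Ndufa12, a complex I subunit, at 30.5, 66.7 and 26.3 FPKM. Lgals1, the lectin galectin-1, was at 358, 703 and 525 FPKM. Among the 12 most variable genes, 6 were highest in library 2, 4 in library 3 and 2 in library 1. Gstp1, a glutathione transferase with close copies, was named from its description and is uncertain.

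Interferon-stimulated genes separated library 3. Isg15, a ubiquitin-like protein, was at 14.9, 12.3 and 27.9 FPKM and Bst2, tetherin, at 60.1, 60.6 and 100.2 FPKM. This led, after the values had been seen, to a list of such genes, of which 36 had a mean of at least 1 FPKM. All 36 were highest in library 3, compared with 31.4% of the 10534 coding genes at 1 FPKM or more in each library. The filters differ, since the 36 were kept by their mean. Some, such as Usp18 (0.69, 0.79 and 1.66 FPKM), passed only through library 3. At 1 FPKM or more in each library the list held 31, all among the 36. The summed level of the 36 was 840.1, 843 and 1041 FPKM, and their median deviation on the log2(FPKM + 1) scale was −0.09, −0.18 and 0.29. Because the list was chosen from these libraries, it describes them and is no independent evidence. Rtp4 (4.39, 4.41 and 9.06 FPKM) and Irf7, an interferon regulatory factor (2.28, 2.21 and 4.61 FPKM), showed the same order. No cause was tested.

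**Figure D5:**
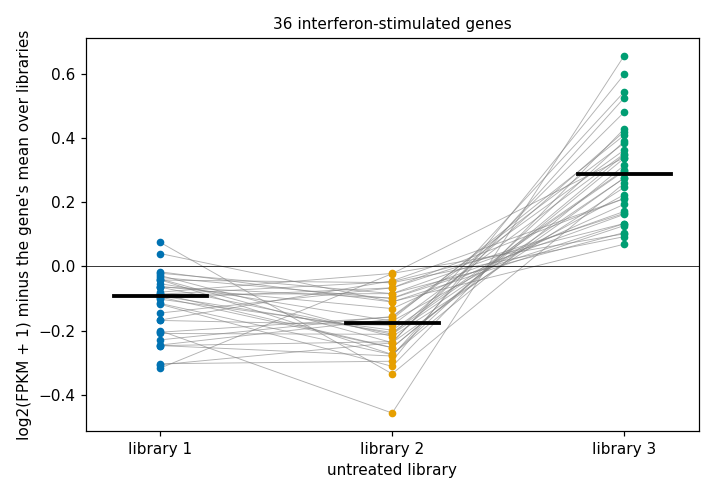
Deviation of each of 36 interferon-stimulated genes from its mean over the 3 untreated libraries, on the log2(FPKM + 1) scale, with lines joining a gene and bars for the median. Medians are −0.09, −0.18 and 0.29, and every gene is highest in library 3.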

How the data were processed

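RNA of 3 untreated libraries was described; the SMARTer mRNA-Seq kit and paired-end reads are per the labels. The authors deposited 1 table of FPKM values for 41761 genes, per the file headers. No aligner or counter is named in the sources used. GRCm38 and mm10 are named in the submitters' processing notes, whereas 41096 gene identifiers are those of C57BL/6NJ. Within each library, FPKM times length came in steps of equal size (to 0.01 read), so reads were rebuilt. The scaling total exceeded the rebuilt reads by 1.01 to 1.03 times. Strand use in counting is not stated.

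Members, gene lists (27, with 514 of 532 genes found) and families were chosen with earlier results of these data known. A gene counted as reaching a level if each library did. Named genes were the 6 markers, the 30 most abundant coding genes, up to 6 of the highest and 6 below 1 FPKM per list, the leading pair per family, the 12 with the largest coefficient of variation, and Ucp1, Lep, Dlk1, Xist, Actb and Gapdh; others were chosen after their values were seen. Xist was at 0.01 FPKM. For 328 coding rows without a symbol, the symbol was taken from the table's description; this was chosen after the files were seen. Python 3.11.15 with pandas 2.3.3 was used, and the rebuilding of reads was tested on simulated data. Values carry no multiple-testing correction because no test was made.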

Additional observations from a re-analysis of the deposited data

How the results depend on the processing

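Counts and shares were recomputed on a TPM scale, with plain read totals, at minimums 2 times lower and higher, from the mean over libraries, with each library left out, and, chosen after seeing the data, per transcript length and with the table's own symbols only. Of 107 such values 105 stayed within 1.5 times the reported count, or within 1 SD of the reported share. Some could not do otherwise, so this number is no measure of robustness. A share within a library is unchanged by either rescaling, and a count near its list size cannot rise 1.5 times. The limit was also wide: the smooth muscle and pericyte count went from 10 to 14 on the TPM scale and stayed within it. The exceptions concern the share of the 100 most abundant genes, 25.2% of FPKM, which was 18.5% of rebuilt reads and 26.0% per transcript length. Without each library in turn it was 25.1% to 25.3%. A pseudocount of 0.1 moved the median log2 level by more than the SD in 22 of 27 lists. No paired analysis was possible because the results come from no test and describe a single group. Depth limits genes near 3 reads, such as Ucp1 and Tcf21. Lengths in the table, close copies and overlapping rows limit comparison between some genes, such as Fabp4, Gapdh and Itgam.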

Other observations

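Sex-linked genes were read too. Xist, the X-inactivation RNA, was at 0.01, 0.01 and 0.01 FPKM, with Ddx3x at 122, 115 and 123 FPKM and Kdm6a at 4.00, 3.97 and 3.64 FPKM. No row of the table lies on chromosome Y, so genes of that chromosome could not be read beside Xist.

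Rows of liver, blood and skeletal muscle were sparse, with 3 of 15 at 1 FPKM or more in each library: Cyp2e1 (4.30, 5.59 and 3.46 FPKM), Acta1 and Apoa2. Among matrix families, Lama4 held 84.5% ± 0.379 of laminin alpha chains, Fbn1 91.7% ± 0.157 of fibrillins and Lox 68.4% ± 1.85 of lysyl oxidases. Car3, a carbonic anhydrase abundant in fat and muscle, held 75.5% ± 1.11 of its family at 468 ± 39.9 FPKM. Igfbp7 led the IGF binding proteins with 50.9% ± 0.548, followed by Igfbp6 with 20.9%.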
